A study of Drosophila melanogaster with 6 samples.

Results

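The rhodopsin genes of Drosophila melanogaster were compared between heads of miR-210 mutant flies (named M22-3 in the labels) and those of the w1118 control strain, with 3 samples in either group. Members were chosen by name, and all 7 were found among the 13541 genes of the table: ninaE, Rh2, Rh3, Rh4, Rh5, Rh6 and Rh7. Each sample was RNA of adult heads, and sex, age, the kind of lesion at the miR-210 gene and the number of flies pooled are not given in the labels. Transcripts of the pigment gene white (w) were near the floor in both groups, with an authors' mean of 2.46 in mutant heads and 2.01 in control heads.

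Rhodopsins are the light-sensitive receptors of photoreceptor cells. Each joins an opsin protein to a chromophore, and once light has changed the chromophore the receptor activates a Gq protein, phospholipase C and in the end the TRP and TRPL channels. In the compound eye each unit holds outer photoreceptors, which carry the product of ninaE (called Rh1), and a pair of inner photoreceptors. The inner cell R7 makes Rh3 or Rh4 and the inner cell R8 beneath it makes Rh5 or Rh6, in matched pairs called pale (Rh3 with Rh5) and yellow (Rh4 with Rh6). Rh2 belongs to the ocelli, simple eyes on top of the head, and Rh7 has been described in clock neurons of the brain and in the eye.

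The question was how far each rhodopsin message differed between the miR-210 mutant and the control strain. The mir-210 gene itself (X, 18128219 to 18128318, plus strand, BDGP6, the assembly of build dm6) was not analysed here. CR32553 is the noncoding gene beside it, on the minus strand (18124575 to 18127027). Its normalized counts were 2.06, 10.9 and 4.46 in the mutant libraries, against 563, 445 and 324 in the control libraries. These counts do not measure miR-210. The groups differed in CR32553 as well as in the label, and its part in the rhodopsin values was not tested. Values by library were recovered from the authors' group means and are listed as deepest, middle and shallowest library of a group, since they carry no replicate number. Reads in recovered genes ranged from 8477953 to 11772473 in mutant libraries and from 11717442 to 20530605 in control libraries. Whether the samples are separate sets of flies is not given in the labels, and p-values therefore measure only how these samples vary, which may be technical. In heads, fewer photoreceptors and less message per photoreceptor cannot be told apart.

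Message for 5 of the 7 rhodopsins fell in mutant heads at an adjusted p under 0.05 in the authors' deposited table, where 1.89% of 11155 tested genes fell. No rhodopsin rose. The fall was graded: authors' means in the mutant were 3.06% of the control for Rh5, 9.76% for Rh2, 11.3% for Rh4, 16.9% for Rh3 and 31.4% for ninaE. Rh6, at 47.5% of the control, did not pass, and Rh7 stood at 98.3%. Of the 6 rhodopsins recovered by library, 4 had every mutant library below every control library, which was so for 9.2% of tested and recovered genes. limma on the recovered libraries also called those 4 lower, where it called 0.61% of genes lower.

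**Figure D1:**
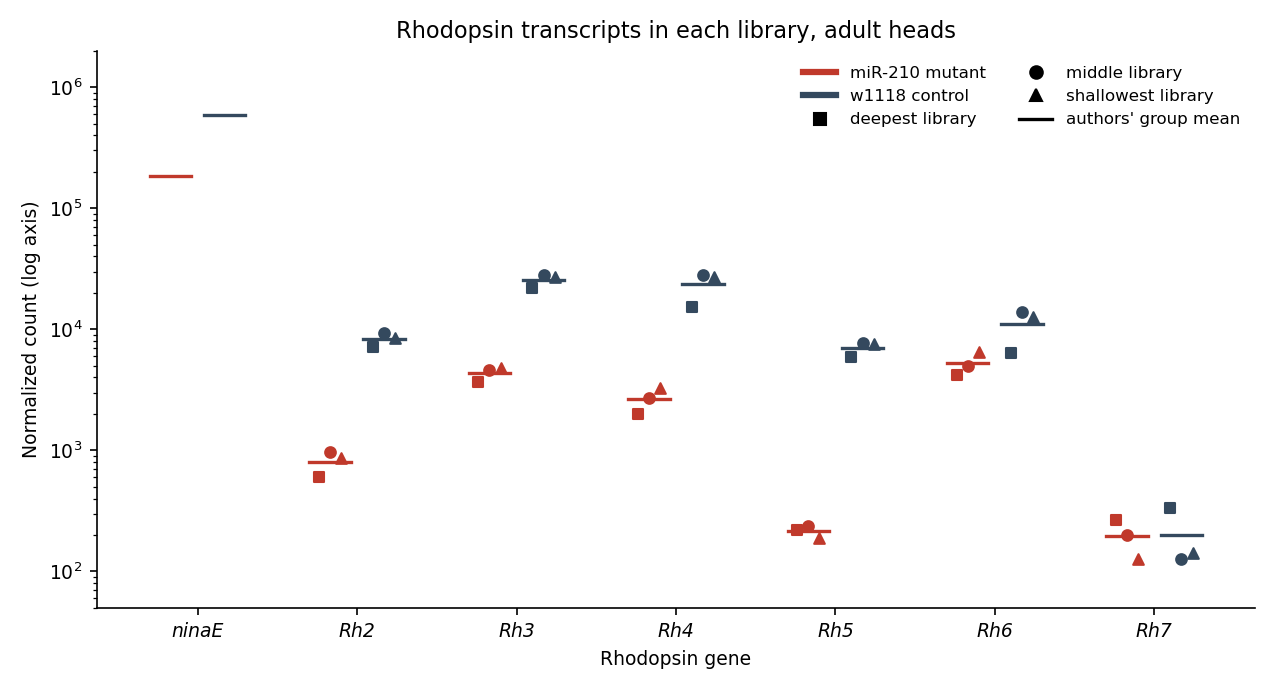
Normalized counts (log axis) of the rhodopsins in each recovered library of miR-210 mutant heads (red, left) and w1118 control heads (blue, right); symbols mark the deepest, middle and shallowest library and bars the authors' group means. Rh2, Rh3, Rh4 and Rh5 show no overlap between groups, Rh6 and Rh7 do, and ninaE has group means only.

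ninaE encodes the rhodopsin of the outer photoreceptors, the most numerous in the eye. Its authors' mean was 185443 in mutant heads and 590062 in control heads, 3.18-fold lower. The authors' deposited table gives a log2 fold change of -1.67 ± 0.41 (adjusted p = 0.00222). Errors of this kind are standard errors implied by the authors' p-value and fold change. ninaE was too abundant for its libraries to be recovered, so its spread within a group could be seen only through that error.

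Among R8 rhodopsins, Rh5 fell by far more than Rh6. Rh5, the blue-sensitive opsin of pale R8 cells, had normalized counts of 219, 236 and 190 in the mutant libraries, against 5948, 7643 and 7491 in the control libraries. The highest mutant library reached 3.97% of the lowest control library. The authors' deposited table put the log2 fold change at -5.03 ± 0.21 (adjusted p = 4.4e-119), the smallest p of all tested genes. Even in the shallowest mutant library Rh5 rested on 128 reads.

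Rh6, the green-sensitive opsin of yellow R8 cells, had 4211, 4948 and 6497 in the mutant libraries, against 6326, 13974 and 12695 in the control libraries. The groups overlapped through the deepest control library alone, whose Rh6 count lay below that of the shallowest mutant library. For Rh6 the authors' deposited table has a log2 fold change of -1.08 ± 0.37 (adjusted p = 0.0712). limma gave -1.02 ± 0.34 (adjusted p = 0.301), and the call turned when depth rank, deepest against the rest, was a term (adjusted p = 0.00217). It also turned when the deepest library of each group was left out (-1.23 ± 0.16, adjusted p = 0.0047 in limma). limma called 9.29% and 4.02% of genes lower in those fits, 5 of the 6 recovered rhodopsins among them in each.

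Both ultraviolet opsins of R7 cells fell. Rh3, of pale R7 cells and of the dorsal rim, had 3671, 4600 and 4761 in the mutant libraries, against 22082, 28075 and 26813 in the control libraries. Rh4, of yellow R7 cells, had 1983, 2727 and 3304 in the mutant libraries, against 15389, 28200 and 27197 in the control libraries. For either gene the highest mutant library was well below the lowest control library, at 21.6% of it for Rh3 and 21.5% for Rh4. The authors' deposited table gives log2 fold changes of -2.56 ± 0.21 for Rh3 (adjusted p = 2.4e-31) and -3.14 ± 0.34 for Rh4 (adjusted p = 1.0e-17). The limma call of Rh4 (-3.12 ± 0.30, adjusted p = 0.00793) was lost without the middle mutant library (0.0682), the middle control library (0.0629) or the shallowest control library (0.0611).

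Rh2, the opsin of the ocelli, fell 10.2-fold. Its normalized counts were 601, 962 and 858 in the mutant libraries, against 7102, 9292 and 8416 in the control libraries, with a wide gap between the groups. In log2 terms this was -3.36 ± 0.26 in the authors' deposited table (adjusted p = 1.4e-34).

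Rh7 did not pass the test and had the lowest group means of the rhodopsins. It had 265, 199.6 and 126 in the mutant libraries, against 333, 126 and 141 in the control libraries, and the groups overlapped throughout. Its log2 fold change was -0.03 ± 0.49 in the authors' deposited table (adjusted p = 0.995), an error too wide to show that its level was the same in both groups.

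Per length of transcript, the order of the rhodopsins differed between groups. In mutant heads the authors' means per kb ran from ninaE (116778) through Rh6 (3709), Rh3 (3123), Rh4 (1981), Rh2 (591) and Rh5 (137) to Rh7 (49.1). In control heads they ran from ninaE (371576) through Rh3 (18445), Rh4 (17491), Rh6 (7817), Rh2 (6059) and Rh5 (4470) to Rh7 (49.9). Neighbours in the order that overlapped between libraries were Rh6 and Rh3 in the mutant, where Rh6 was the higher in 3 of 3 libraries. In the control they were Rh3 and Rh4, with Rh3 the higher in 1 of 3 libraries, and Rh6 and Rh2, with Rh6 the higher in 2 of 3. ninaE made up 92.4% of the summed level per kb in mutant heads and 87.2% in control heads. Among the other 6 rhodopsins, Rh6 made up 38.7% in mutant heads and 14.4% in control heads, and Rh5 made up 1.43% and 8.23% in the same order of groups.

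**Figure D2:**
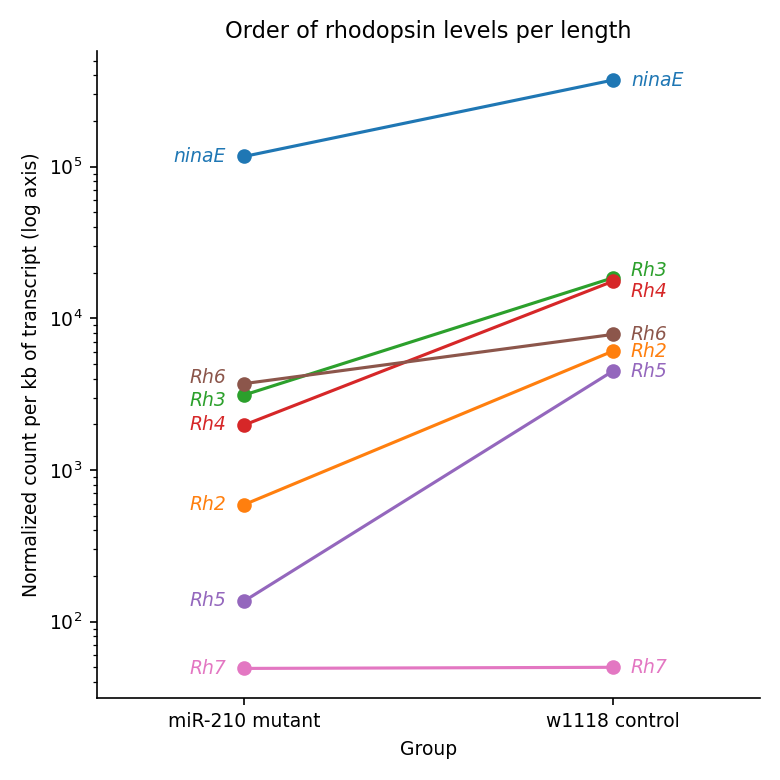
Authors' mean normalized count per kb of transcript (log axis) for each rhodopsin in miR-210 mutant heads (left) and w1118 control heads (right), with lines joining the same gene. Rh6 stands above Rh3 and Rh4 in the mutant, at 3709, and below both in the control, at 7817.

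Ratios between rhodopsins of the same library differed between the groups in most pairs. The ratio of each rhodopsin to each other was taken in every library, giving 15 pairs of the 6 recovered genes, and in 13 pairs the 3 mutant libraries did not overlap the 3 control libraries. Over all pairs of 8360 recovered protein-coding genes, most of them not called, 20.3% showed no overlap. Many of the 13 pairs set a rhodopsin that fell against Rh6 or Rh7, which were not called. Among Rh2, Rh3, Rh4 and Rh5 only the ratio of Rh2 to Rh4 overlapped. The pairs share genes, so these are not separate observations. An exact two-sided permutation test with 3 against 3 libraries cannot go below p = 0.1, which these 13 pairs reached (0.115 after Benjamini-Hochberg adjustment over the pairs).

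In R8 the log2 ratio of Rh5 to Rh6, on normalized counts with 1 added, was -4.58 ± 0.44 in mutant libraries and -0.57 ± 0.42 in control libraries (SD, n = 3; exact permutation p = 0.1). Per length, the authors' means put Rh6 27.1 times above Rh5 in mutant heads and 1.75 times above it in control heads. In R7 the log2 ratio of Rh4 to Rh3 was -0.72 ± 0.18 in mutant libraries and -0.16 ± 0.31 in control libraries (SD, n = 3; exact permutation p = 0.1). There the groups nearly met, at -0.53 in the shallowest mutant library and -0.52 in the deepest control library.

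The pale pair, Rh5 against Rh3, gave -4.33 ± 0.29 in mutant libraries and -1.87 ± 0.03 in control libraries (SD, n = 3; exact permutation p = 0.1). The yellow pair, Rh4 against Rh6, gave -0.97 ± 0.11 in mutant libraries and 1.13 ± 0.14 in control libraries (SD, n = 3; exact permutation p = 0.1). So Rh5 fell further than Rh3 in whole heads. Rh3 is also made in the dorsal rim, so this ratio does not measure pale pairs of cells alone. Within the yellow pair the R7 opsin Rh4 stood above Rh6 in control libraries and below it in mutant libraries. For Rh2 against Rh4 the groups overlapped, with -1.72 ± 0.22 in mutant libraries and -1.47 ± 0.31 in control libraries (SD, n = 3; exact permutation p = 0.4). Rh6 against Rh7 also overlapped (exact permutation p = 0.3, n = 3).

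**Figure D3:**
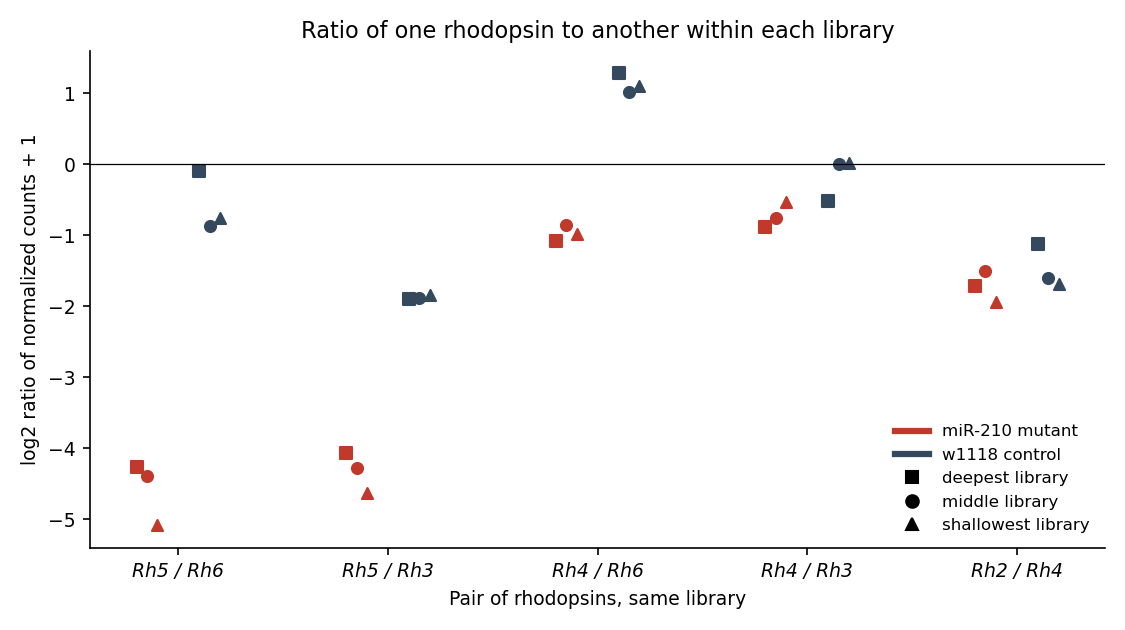
Log2 ratio of one rhodopsin to another in the same library (normalized counts plus 1) for miR-210 mutant heads (red, left) and w1118 control heads (blue, right). Rh5 over Rh6 averages -4.58 in the mutant and -0.57 in the control, whereas Rh2 over Rh4 overlaps between groups.

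Downstream of rhodopsin, most of the phototransduction cascade was lower in mutant heads as well. Of 26 tested cascade genes 16 fell (1.89% of all tested genes) and 0 rose, and their median log2 fold change was -1.05, against -0.04 over all tested genes. Those with the largest change in the authors' deposited table were inaF-B, needed for function of the TRP channel (-3.36 ± 0.51, adjusted p = 8.2e-09), trpl, a channel subunit (-2.59 ± 0.19, 4.3e-38), stops, which acts to keep phospholipase C levels up (-2.19 ± 0.19, 8.3e-27), rdgC, the rhodopsin phosphatase (-1.71 ± 0.42, 0.00281), Ggamma30A, a G protein subunit (-1.51 ± 0.31, 9.0e-05), and Arr2, the main arrestin (-1.49 ± 0.26, 1.8e-06). Rh5 lay below every one of these, and Rh6 close to the median of the cascade. limma on recovered libraries called 5 of the 20 cascade genes recovered (0.61% of all genes), 16 with depth rank as a term (9.29%) and 14 without the deepest libraries (4.02%). Leaving out any single library left 1 to 2 of the 20 called.

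**Figure D4:**
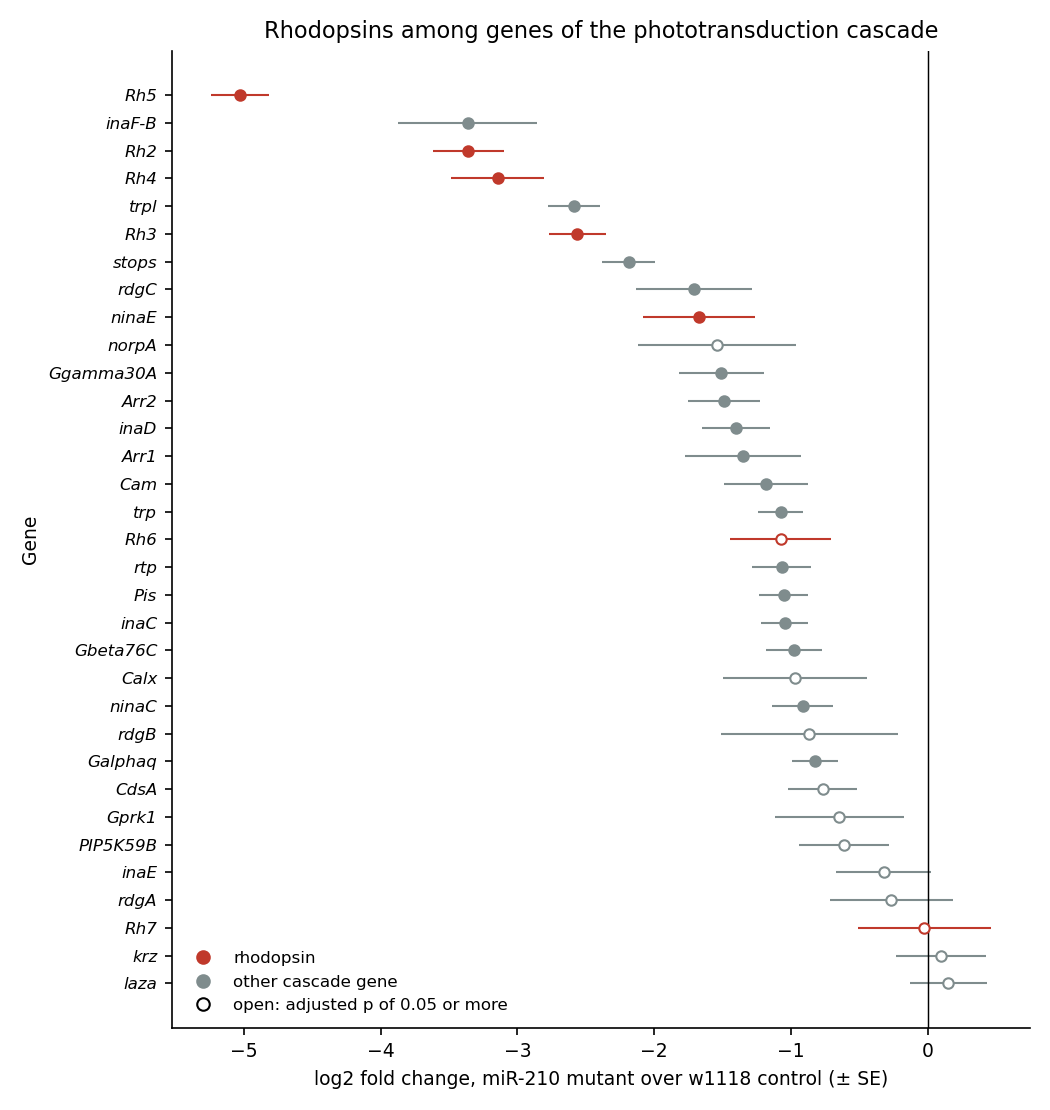
Log2 fold change, miR-210 mutant over w1118 control, from the authors' deposited table with the standard error its p-value implies, for the rhodopsins (red) and the other genes of the cascade (grey); open symbols did not pass. The rhodopsins run from Rh5 at -5.03 to Rh7 at -0.03 and span more than the rest of the cascade.

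Set against those 20 cascade genes in the same library, Rh5, Rh2, Rh4 and Rh3 were lower in every mutant library than in any control library, as were 0.335% of 8360 genes. The cascade genes not recovered were Ggamma30A, trp, trpl, ninaC, Arr1 and Arr2. All of them were called lower, from -0.92 for ninaC to -2.59 for trpl, whereas every cascade gene not called is among the 20. For Rh5 the log2 level over the mean of the cascade was -3.28 ± 0.28 in mutant libraries and 0.71 ± 0.54 in control libraries (SD, n = 3; exact permutation p = 0.1). The mutant minus control difference was -3.99 for Rh5, -2.35 for Rh2, -2.09 for Rh4 and -1.54 for Rh3. Rh6 differed by 0.01, with 1.30 ± 0.62 in mutant libraries and 1.29 ± 0.97 in control libraries (SD, n = 3; exact permutation p = 1). From deepest to shallowest, Rh6 had 0.67, 1.33 and 1.90 in mutant libraries, against 0.18, 1.91 and 1.78 in control libraries. The deepest mutant library was above the deepest control library and the middle one below its counterpart. The mean of 0.01 therefore does not show that Rh6 followed the cascade library by library. Rh7 was on the other side, higher against the cascade in every mutant library, by 1.08 (exact permutation p = 0.1), as were 69.9% of genes, so nothing is read from it. In either direction 5 of the 6 rhodopsins did not overlap, against 70.3% of the 8360 genes. After Benjamini-Hochberg adjustment over the 6 rhodopsins, the 5 with an exact permutation p of 0.1 had 0.12.

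**Figure D5:**
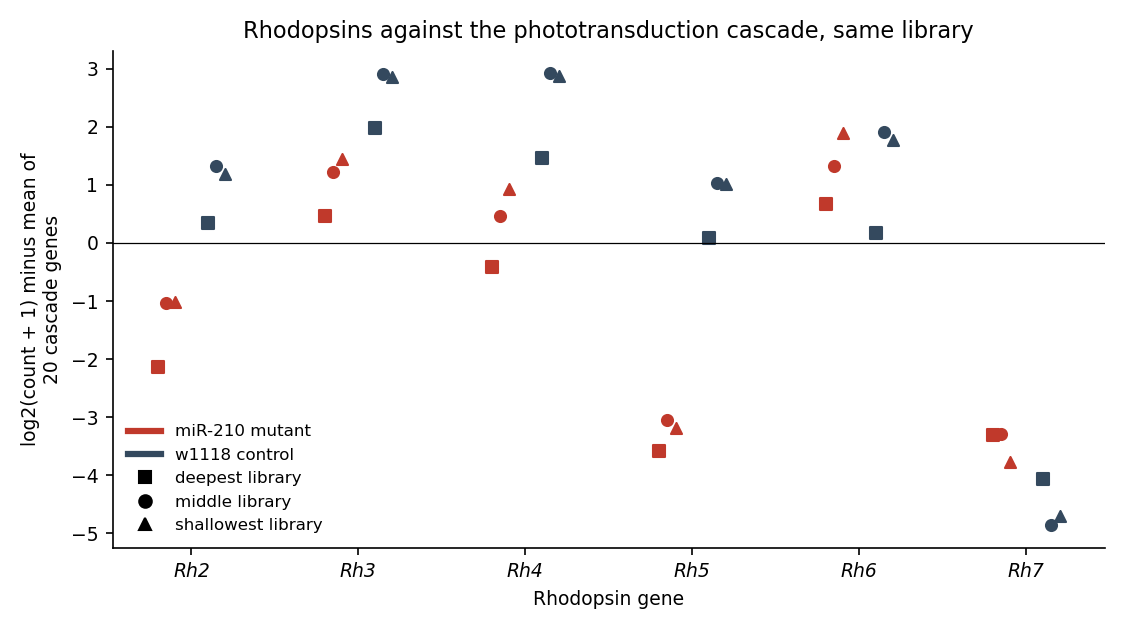
Log2 level of each recovered rhodopsin minus the mean log2 level of 20 cascade genes in the same library, for miR-210 mutant heads (red, left) and w1118 control heads (blue, right). Rh6 overlaps between groups and the other 5 do not, with Rh5 the furthest apart at a difference of -3.99.

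Of 29 tested genes that set which rhodopsin a photoreceptor makes, or its identity, 2 fell (1.89% of all tested genes fell) and 0 rose, with a median of -0.23. They were salr, one of the spalt genes that specify inner photoreceptors, with 210, 192 and 131 in the mutant libraries, against 439, 313 and 348 in the control libraries, and Pph13, a homeobox activator of rhodopsin genes, with 571, 686 and 692 against 838, 1269 and 1272. In both, every mutant library lay below every control library, as in melt, 3 of 29 in all, near the 9.2% of genes that did so. Log2 fold changes in the authors' deposited table were -1.04 ± 0.29 (adjusted p = 0.00998) and -0.79 ± 0.26 (0.0455), while limma called 0 of the 29. In all 4 had an unadjusted p under 0.05 in the authors' deposited table. The share of all tested genes at that threshold was not counted, so no such count, here or for the lists below, can be set against it. Both genes of the switch between Rh5 and Rh6 in R8 cells did not pass: melt had 141, 113 and 81.8 in the mutant libraries, against 149, 169 and 172 in the control libraries, and -0.54 (adjusted p = 0.464) and wts -0.31 (0.917) in the authors' deposited table, both named after their values were seen. ss, which directs R7 cells to the yellow fate and Rh4, had -0.34 (0.911) in the authors' deposited table, also named after its value was seen.

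For rhodopsin folding, transport and chromophore supply 13 genes were tested, 0 passed in either direction, and the median was 0.01. At an unadjusted p under 0.05 there was 1, Cnx99A, a calnexin chaperone for rhodopsin, with -0.40 ± 0.18 (adjusted p = 0.29 in the authors' deposited table). limma called 0 of the 13 as well. Next in order of p was ninaG, which acts in forming the chromophore (-0.32 ± 0.17, adjusted p = 0.417 in the authors' deposited table).

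Of 9 tested genes of photoreceptor structure and transmitter, 2 fell, where 1.89% of all tested genes fell: chp, a photoreceptor surface protein, with 13501, 15686 and 13042 in the mutant libraries, against 31766, 26238 and 31783 in the control libraries, and Hdc, the enzyme that makes the transmitter histamine, with 618, 623 and 552 against 1935, 1428 and 1412. Their log2 fold changes in the authors' deposited table were -1.09 ± 0.18 (adjusted p = 5.3e-07) and -1.41 ± 0.22 (2.5e-08). At an unadjusted p under 0.05 in the authors' deposited table there were 5 of the 9. Over all 9 the median was -0.65, and their summed normalized count ranged from 24394 to 38695 in mutant libraries and from 47743 to 70640 in control libraries.

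Genes of lens, cone and pigment cells had 0 of 7 called, 1 at an unadjusted p under 0.05 and 0 of 6 called by limma, and a median of 0.06, and their sum over 6 recovered genes ranged from 9094 to 19940 in mutant libraries and from 7569 to 11715 in control libraries. Of these, Crys, a lens protein gene, had -0.74 (adjusted p = 0.348) and the pigment gene st 0.63 (0.631) in the authors' deposited table. Neuronal markers had 0 of 9 called, 1 at an unadjusted p under 0.05 and 0 of 10 called by limma, and a median of -0.60. The list holds genes of neurons at large, photoreceptors included, so it does not measure neurons outside the retina alone. Among them nSyb had -0.79 (adjusted p = 0.133) and Syt1 -0.86 (0.816) in the authors' deposited table. Their sums ranged from 13688 to 33695 in mutant libraries and from 22211 to 52442 in control libraries. Of 8 glial markers 1 fell (1.89% of all tested genes fell), alrm, at -0.79 (adjusted p = 0.00297 in the authors' deposited table), while limma called 0 of 7. The median of the glial markers was 0.10, with sums of 7 recovered genes from 16360 to 22190 and from 17047 to 21983 in the same order of groups.

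Fat body markers were higher, 5 of 11 tested (background 2.56%), with a median of 1.00. Lsp2 (5.23), Lsp1beta (3.38), Obp99a (2.78), Yp3 (1.16) and Yp2 (1.00) passed in the authors' deposited table, while limma called 1 of the 7 recovered. The share of all genes that limma called higher was not counted. At an unadjusted p under 0.05 in the authors' deposited table there were 8 of the 11. The sum of the 7 recovered members ranged from 25099 to 39994 in mutant libraries and from 12028 to 18768 in control libraries. No marker was at 0 in either group's mean; Fbp1 was the lowest fat body marker, at 2.98 in mutant heads and 9.17 in control heads. The part of other cells in the rhodopsin values was not tested. Nor was the part of sex, which the labels do not give, in the fat body values.

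The deepest library of each group stood apart from the others, and the recovered rhodopsins differed in it by unequal amounts and not all in the same direction. On the log2 scale the deepest library differed from the mean of the other libraries of its group by -0.60 (mutant) and -0.32 (control) for Rh2, by -0.35 and -0.31 for Rh3, by -0.60 and -0.85 for Rh4, by 0.05 and -0.35 for Rh5 and by -0.43 and -1.07 for Rh6. Rh7 was higher in the deepest library, by 0.74 and 1.32. Neuronal markers were higher in the deepest library by a median of 2.13 (mutant) and 1.76 (control), and cascade genes by 0.60 and 0.61. Set deepest against deepest, the mutant minus control difference was -4.76 for Rh5, -3.56 for Rh2, -2.96 for Rh4, -2.59 for Rh3, -0.59 for Rh6 and -0.33 for Rh7. In the other 4 libraries it was -5.16, -3.28, -3.21, -2.55, -1.23 and 0.25 in the same order of genes, so the falls of Rh5, Rh2, Rh4 and Rh3 were present in both sets and the sign of Rh7 differed between them.

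The rhodopsin genes lie on several chromosome arms (BDGP6). Rh5 is on 2L (12008153 to 12009832, plus strand), Rh4 on 3L (16852527 to 16862517, minus) and Rh7 on 3L (12164205 to 12175482, minus). On 3R are Rh6 (15483158 to 15484699, plus), Rh2 (18899423 to 18901019, plus), ninaE (19886255 to 19888206, minus) and Rh3 (20081060 to 20082450, minus), which is a single exon. Of the 14 genes nearest to a rhodopsin on either side 12 were tested and 1 was called (4.46% of all tested genes were, in either direction), CAH2 beside Rh7, which rose by 0.53 on the log2 scale in the authors' deposited table (adjusted p = 0.0304). Rh4 has an intron of 8642 bases that holds sina, sinah and CG13029 on the other strand. sina had 815, 674 and 568 in the mutant libraries, against 915, 654 and 660 in the control libraries, and did not pass in the authors' deposited table (adjusted p = 0.957), nor did the other overlapping genes.

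The genes whose pattern over the 6 libraries was most like that of a rhodopsin were found by the root mean square difference of centred log2 values among 8360 protein-coding genes. This measure takes in the size of the difference between groups, so genes of like fold change lie close in it. Rh2 and Rh4 were each most like CG10407 (0.20 and 0.23), then each other (0.25), then Rh3 (0.42 and 0.35). CG10407 had 16.4, 24.2 and 17.9 in the mutant libraries, against 133, 224 and 222 in the control libraries. Rh3 was most like sand, a potassium channel gene (0.20), Ipk1, an inositol phosphate kinase gene (0.21), and stops (0.22). Rh5 had no gene as close, with Crg-1 at 0.42, NimC1 at 0.48 and Rh2 at 0.85. Among all tested genes only 15 had a lower fold change than Rh5. Crg-1 had low counts in the mutant libraries, 10.3, 13.3 and 4.46. Rh6 was most like Cpr51A (0.15), CG18622 (0.17) and CG9427 (0.17), and Rh7 most like CG43367 (0.08), knrl (0.09) and ash1 (0.10).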

How the data were processed

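RNA of adult heads was sequenced on an Illumina platform, per the labels. Per the submitters' processing notes the tools were FastQC, HISAT2, featureCounts and DESeq and the build dm6, with no role or version stated. Strandedness is not given in the sources used here. The authors' deposited table gives for each group a mean signal (counts divided by size factors, averaged over the group), a log2 fold change, a p-value and an adjusted p-value; the 2386 genes listed with an adjusted value of 1 were treated as not tested. Gene length is another column of that table, deposited by the authors. Calls are theirs, at an adjusted p under 0.05, and the standard errors printed were computed from their p-values.

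A group mean can be taken apart into whole reads of 3 libraries, each read being worth a fixed step per library. For means up to 10000 exactly 1 combination was found for 13193 of 13193 mutant and 13225 of 13225 control means. For 230 further genes with means up to 30000 the deposited fold change chose between candidates: a negative binomial fit had to give it within 4e-05, where for 6498 genes already recovered it deviated by at most 2.2e-05. This recovered 207 more genes, among them Rh3, Rh4 and Rh6, and 13376 in all (98.8%), holding 48.2% of mutant and 51.9% of control signal. In simulated means of 205 of these genes 202 gave a single combination, and 0 were wrong. ninaE was not recovered. Size factors were 0.973, 0.826 and 0.672 in the mutant and 1.72, 1.08 and 1.00 in the control. Counting error is one part of the spread of the recovered libraries.

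limma 3.58.1 in R 4.3.3 (trend, robust) was run on log2(normalized count + 1) of genes with a mean of at least 1, after a test on simulated data, and understates changes of low genes. Exact permutation tests used scipy 1.17.1. Replicate numbers of the labels were not used, since only group columns were deposited. Members and gene lists were chosen with earlier results of these data known. Named genes are all rhodopsins, up to 6 called genes per list by size of change, with none called the 2 smallest p-values, rhodopsin neighbours, and the 3 most alike genes per rhodopsin. List members without a match (ninaA, Rdhb, XPORT-A, XPORT-B, BalaT and Lovit) were not analysed here. No sequence is shown.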

Additional observations from a re-analysis of the deposited data

How the results depend on the processing

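Counts of rhodopsins called lower stayed within 1.5 times of the 5 in the authors' deposited table under limma with other pseudocounts (0.5 and 5), no filter, equal totals, the deepest library as a term, or an adjusted p under 0.01 (4 to 5, ninaE not fitted in limma). Leaving out each library in turn gave 3 to 4, the 3 without the middle mutant, middle control or shallowest control library. The limma fold change of Rh2, Rh3 and Rh5 was called under every alternative run. That of Rh7, never called, was above 0 in 10 of 13 limma fits: 0.055 in limma, 0.055 with a pseudocount of 0.5, 0.052 with a pseudocount of 5, 0.055 with no filter, 0.0010 with equal totals, 0.055 with the deepest library as a term and 0.25 without the deepest libraries. Leaving out single libraries gave -0.20 to 0.49, among them 0.014 without the middle mutant library and 0.34 without the shallowest mutant library. Cascade genes called numbered 16 in the authors' deposited table, 5 of 20 recovered in limma, and 1 to 2 with single libraries left out. At an adjusted p under 0.01, regulators called fell to 1 from 2 and fat body markers to 3 from 5. Pairs of rhodopsins without overlap numbered 13 to 14 with single libraries left out. Leaving out a library cannot create an overlap, so that count could not fall and says nothing about stability. The order per length was the same with coding length. The cause of these changes was not tested. No paired analysis was possible because the columns carry no replicate numbers. Coding length came from the Ensembl annotation instead of the planned RefSeq protein. Reads behind Rh5 ranged from 128 to 10243 per library, and those behind Rh7 from 85 to 574.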
